A study of Mus musculus with 18 samples.

Results

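The fibrillar collagens described here are 7 genes out of 49184 with a transcript in the libraries. They are listed by name, under a rule that uses no measured value, although the list was drawn up with earlier results of these data known. They are Col1a1 and Col1a2, which encode the chains of type I collagen, Col3a1 of type III, Col5a1, Col5a2 and Col5a3 of type V, and Col24a1 of type XXIV. Each library held reads from all of them, and all 7 passed the filter on low counts in both fits used below.

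Fibrillar collagens are secreted as procollagens, rope-like trimers whose end pieces are cut off outside the cell before the molecules pack side by side into fibrils. Type I is the main collagen of bone, tendon, ligament, skin and scar. Type III co-assembles with it in soft, distensible and healing tissues, and type V sits within type I fibrils, where it starts fibril formation and limits their width. Articular cartilage is instead built on type II collagen, encoded by Col2a1, with type XI as the partner that type V is for type I. Type XXIV is a less abundant fibrillar collagen known mainly from developing bone.

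Cartilage RNA was measured in 18 libraries from wild-type male C57Bl/6J mice, 12 weeks old, in which a load of 12 N applied once to the bent right knee tore the anterior cruciate ligament (ACL). The 5 groups were the injured right knee and the contralateral left knee at day 1 (3 libraries each) and at day 7 (3 each) after rupture, and unloaded knees of naïve mice (6 libraries, which the labels place at day 7). Loaded mice were anaesthetised with isoflurane and given the analgesic buprenorphine, and the sources used here do not say whether naïve mice were. Every library was a pool of femoral condyle cartilage caps, from 4 mice by the series text, although the study's pooling scheme gives other numbers at day 1 and for the naïve mice. The scheme gives the reason for pools of 4 mice as cartilage that had been partly lost by day 7. By that scheme the naïve libraries share mice, and injured and contralateral knees came from the same animals. The study's own test took the shared mouse pool into account. The sources used here do not say which libraries share mice, so that libraries were treated as independent here. An SD here describes the spread between libraries and not between mice, and the p-values rest on that spread. Because naïve libraries share mice, p-values against naïve knees may be too small. The questions asked of these genes were how they stood in uninjured cartilage, how far and when they changed after rupture, and whether the uninjured opposite knee changed too.

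Estimated counts summed to between 16074762 and 41794005 per library, and no member had fewer than 265 in any library. Levels of a gene are given as CPM, counts relative to the size of the library after TMM, a scaling that corrects for a few genes taking a large share of a library. Levels of different genes are compared only as TPM, which divides by transcript length, and only within a library. The labelled cell type, chondrocyte, was visible in its markers: none of 11 was at 0 in any library, and in naïve knees aggrecan (Acan) stood at 372 ± 120 CPM and Comp at 432 ± 110 (SD, n = 6), with Matn1 lowest at 3.35 ± 1.88. Blood was present too, since the β-globin gene Hbb-bs stood at 14131 ± 1224 CPM in the same libraries. Neutrophil and marrow markers summed to 12384 ± 1964 CPM in them. Skeletal muscle markers summed to 6311 ± 2494 CPM (SD, n = 6 for both). Day 7 contralateral replicate 1 stood apart. Its 10 most abundant genes took 40.9% of its counts, against 16.3% to 29.4% in the other libraries, and its TMM factor of 0.696 was the lowest of all (0.829 to 1.16 in the others). It also had the largest share of counts on transcripts without a match in the annotation (3.90%, against 0.667% to 2.40%). For the 7 genes, tests that use day 7 contralateral knees are therefore given with and without it.

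The members lie on 6 chromosomes (GRCm38, GENCODE M21). Col3a1 (chr1:45311538-45349706, plus strand) and Col5a2 (chr1:45374321-45503282, minus strand) are neighbours that run towards each other, with 24614 bases between them. Col1a1 is at chr11:94936224-94953042, Col1a2 at chr6:4504814-4541544, Col5a1 at chr2:27886425-28039514 and Col24a1 at chr3:145292472-145552011, all on the plus strand, and Col5a3 is at chr9:20770050-20815067 on the minus strand. A main protein-coding transcript carried at least 95.0% of each member's counts in every library, a share that was lowest for Col5a3 and at least 99.9% for Col1a1 and Col5a1, so that the gene values below are in effect those of the full-length messages.

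RefSeq promoters (GRCm38.p6) were found for 5 of the 7, and 4 are printed to set genes that rose together at day 7 beside Col24a1, which rose least. Each is the 250 bases before the RefSeq start, which for these 4 genes is also the GENCODE start, read 5′ to 3′ on the gene's strand, with capitals for matches on either strand to 5 short motifs: CCAAT (the CCAAT box), TATAAA (the TATA box), GGGCGG (the GC box bound by Sp1-type factors), CAGAC (a Smad-binding element) and TGANTCA (an AP-1 site).
Col3a1 (chr1:45311288-45311537): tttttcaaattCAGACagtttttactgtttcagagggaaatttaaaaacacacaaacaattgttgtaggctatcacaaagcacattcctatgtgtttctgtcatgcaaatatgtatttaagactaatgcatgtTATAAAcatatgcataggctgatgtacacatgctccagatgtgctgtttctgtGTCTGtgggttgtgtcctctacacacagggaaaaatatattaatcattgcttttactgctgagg
Col5a1 (chr2:27886175-27886424): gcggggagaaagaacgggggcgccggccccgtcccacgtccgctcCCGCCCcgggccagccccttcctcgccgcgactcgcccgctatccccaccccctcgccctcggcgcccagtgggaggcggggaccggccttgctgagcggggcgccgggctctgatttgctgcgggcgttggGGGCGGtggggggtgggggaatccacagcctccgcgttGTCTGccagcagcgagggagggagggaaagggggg
Col5a3 (chr9:20815068-20815317, minus strand): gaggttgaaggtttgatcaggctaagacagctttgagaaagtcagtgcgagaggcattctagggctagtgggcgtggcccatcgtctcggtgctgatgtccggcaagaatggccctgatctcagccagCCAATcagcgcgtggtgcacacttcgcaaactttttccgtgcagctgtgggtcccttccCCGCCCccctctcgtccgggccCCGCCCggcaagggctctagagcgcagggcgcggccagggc
Col24a1 (chr3:145292222-145292471): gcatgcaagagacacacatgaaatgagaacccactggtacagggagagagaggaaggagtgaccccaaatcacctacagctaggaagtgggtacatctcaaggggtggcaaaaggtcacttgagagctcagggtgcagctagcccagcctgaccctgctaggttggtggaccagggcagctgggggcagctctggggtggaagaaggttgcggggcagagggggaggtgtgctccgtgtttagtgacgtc

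No motif was shared by all of them. Col3a1 held TATAAA 117 bases before the start and CAGAC at 239 and, on the opposite strand, at 64. Col5a1 held GGGCGG at 73 and, on the opposite strand, at 205, together with an opposite-strand CAGAC at 35. Col5a3 held CCAAT at 122 and opposite-strand GGGCGG at 63 and 41. None of the 5 motifs was found in the Col24a1 window. The fifth promoter, of Col1a2, is not printed because its RefSeq start lies 125 bases after that of the main GENCODE transcript and 804 after the start of the GENCODE gene. In the 250 bases before its RefSeq start (chr6:4505368-4505617) it held CCAAT at 109, GGGCGG at 205 and 188 and CAGAC at 175. TGANTCA was in none of the 5. Such matches are common: of 32851 promoters cut to the same length, 33.8% held CCAAT, 12.4% TATAAA, 32.7% GGGCGG, 42.2% CAGAC and 6.75% TGANTCA. The matches do not overlap each other in these windows, and a match is a description of the sequence and not of a bound factor.

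In the samples of uninjured cartilage, type I collagen messages were by far the most abundant of the 7 per unit length. These samples also held RNA of blood, marrow and muscle, as given above. In the 6 naïve libraries, Col1a1 made up 45.2% to 54.8% of the members' summed TPM and Col1a2 31.9% to 37.2%. Col3a1 followed at 5.89% to 17.8%, Col5a2 at 1.18% to 2.26%, Col5a1 at 0.740% to 1.29% and Col5a3 at 0.108% to 0.346%, with Col24a1 lowest at 0.0437% to 0.0795%. This order held in each of the 6. Ranked by TPM among all genes of a naïve library, Col1a1 lay between places 23 and 38 and Col1a2 between 33 and 56, whereas Col24a1 lay between 11226 and 15032. Summed over the 7, members exceeded Col2a1, the main collagen of cartilage itself, 4.58- to 9.39-fold in TPM in the naïve libraries, and at least 4.42-fold in every library of the series. The values are those of the mixed samples and not of chondrocytes alone, and the part of other cells in them was not tested.

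The members did not all rank the naïve libraries alike. Col1a1 stood at 14488, 16729 and 16243 CPM in replicates 2, 3 and 6 and at 8982, 9560 and 8545 CPM in replicates 1, 4 and 5, and Col1a2 and Col24a1 were highest in replicates 2, 3 and 6 as well. Col3a1 and Col5a3 had another order, with Col3a1 highest in replicates 4 and 5 (2725 and 2469 CPM, against 1292 to 1597 in the other 4). Markers of osteoblasts and osteocytes, the cells that make type I collagen in the bone under the cartilage, summed to 876, 896 and 865 CPM in replicates 2, 3 and 6 and to 728, 640 and 605 CPM in replicates 1, 4 and 5. Their most abundant gene was Ibsp (217 to 309 CPM in naïve libraries), and none of the 10 was at 0. Osteoclast markers divided the same libraries without overlap, at 1509, 1629 and 1684 CPM in replicates 2, 3 and 6 and 1206, 1191 and 1058 CPM in replicates 1, 4 and 5, with Mmp9 the most abundant and none of 7 at 0. The division was not particular to bone cells. Erythroid sums showed it too, at 34306, 41287 and 36437 CPM, against 33168, 30796 and 30983 CPM in the same order of replicates. Synovial fibroblast sums divided these libraries in reverse, at 868, 837 and 605 CPM, against 1114, 1117 and 1674 CPM. This division was read from the Col1a1 values, and the part of any of these cell types in it was not tested.

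**Figure D1:**
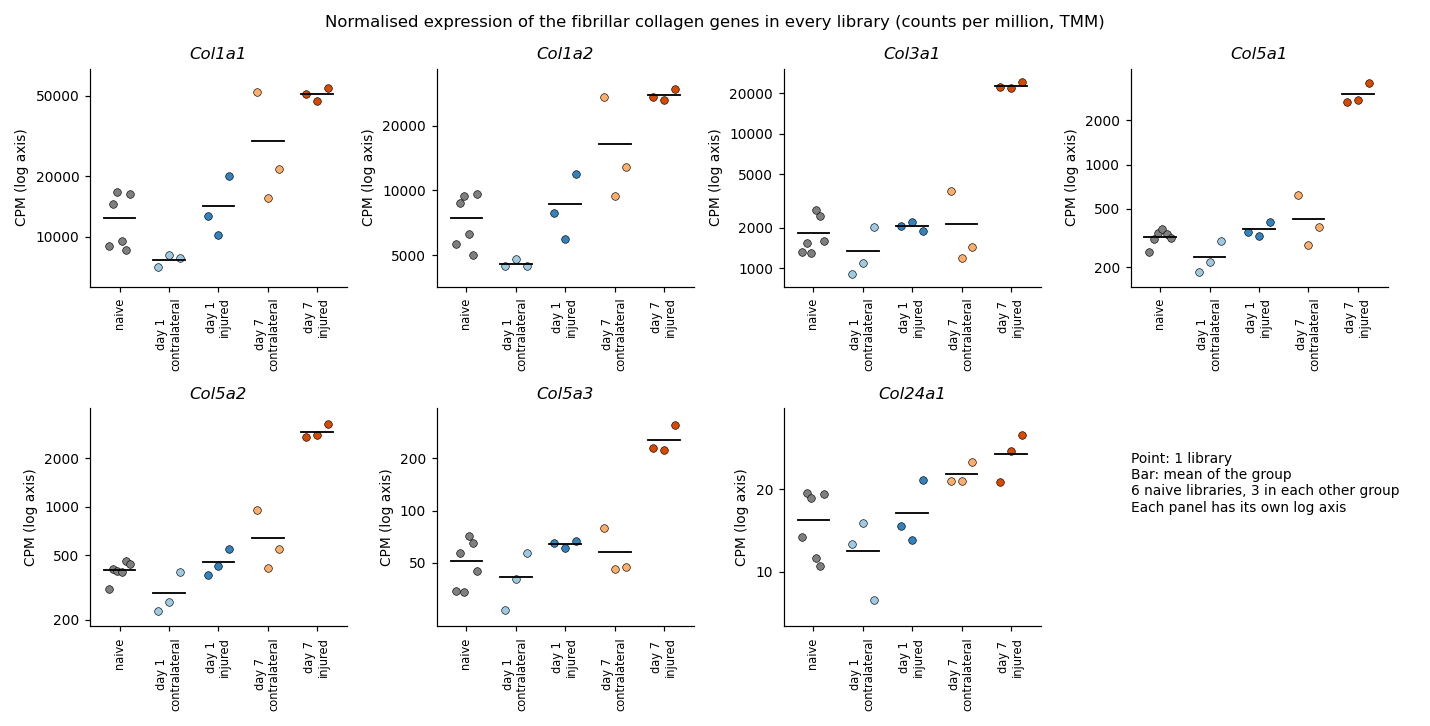
Normalised expression (CPM, log axis) of each of the 7 genes, with a point per library and a bar at the mean of the group (6 naïve libraries, 3 in each other group). The 3 day 7 injured libraries sit above all naïve libraries in every panel, while for Col1a1 and Col1a2 the highest day 7 contralateral library, replicate 1 (TMM factor 0.696), reaches the day 7 injured level. As a share of all counts, without TMM, its Col1a1 (3.65%) stays under that of the injured libraries (at least 3.89%) and above that of the rest of its group (1.67% and 2.17%).

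At day 7 after rupture, all 7 genes were higher in injured than in naïve knees, by 1.76- to 12.6-fold. The increase was largest for type III collagen, followed by the type V chains, then type I, with Col24a1 far behind. Each member passed edgeR's quasi-likelihood test (FDR no higher than 0.05, difference no smaller than 1.5-fold), as did 10.4% of the 21129 genes tested in that direction. The members' median log2 fold change was 2.34, against −0.04 over all genes tested. Scaling by library totals alone, without TMM, lowered the median of all genes to −0.35 and turned the share of higher genes among those called from 63.1% to 21.8%. Under that scaling 6 members kept their call, and Col24a1 lost it (0.51, FDR 0.0814). RNA of whole tissue cannot tell more cells of a type from more RNA per cell.

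Type III collagen, which is laid down early in repairing tissue, showed the largest difference. Col3a1 stood at 21995, 21686 and 24296 CPM in the day 7 injured libraries, against 1292 to 2725 CPM in the naïve ones, with a median of 1568. The groups were far apart, and the fitted difference was 12.6-fold (log2 3.65 ± 0.27 SE, FDR 1.26e-07).

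Col5a1 and Col5a2 encode the chains of the common type V heterotrimer. Col5a1 measured 2686, 2766 and 3604 CPM in injured knees at day 7 and 255 to 365 CPM in naïve knees, with a median of 327, a 9.496-fold difference (log2 3.25 ± 0.15 SE, FDR 1.81e-09). Col5a2 measured 2704, 2764 and 3243 CPM, against 308 to 463 CPM with a median of 406, which is 7.29-fold (log2 2.87 ± 0.17 SE, FDR 1.32e-08). Naïve libraries varied little for these 2 genes, and replicate 3 was the highest injured library for both. Col5a3, a type V chain of more limited distribution, stood at 230, 225 and 311 CPM in the injured knees and between 34.1 and 71.4 CPM in naïve ones, median 50.9, a 5.05-fold difference (log2 2.34 ± 0.24 SE, FDR 3.21e-06).

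The type I chains rose in near parallel. Col1a1 stood at 51090, 46982 and 54701 CPM, against 8545 to 16729 CPM in naïve knees with a median of 12024, so that it was 4.15-fold higher (log2 2.05 ± 0.25 SE, FDR 1.72e-05). Col1a2 stood at 27254, 26247 and 29423 CPM, against 5005 to 9651 CPM with a median of 7518, and was 3.76-fold higher (log2 1.91 ± 0.23 SE, FDR 1.57e-05). The 3 injured libraries lay close together for both genes, while the naïve ones spread widely. By the study's methods, 12 mice supplied the 3 injured libraries and 6 mice the 6 naïve ones. The part of these numbers in the spread was not tested. Col24a1 gave 21.3, 27.6 and 31.5 CPM in injured knees and 10.5 to 19.4 CPM, median 16.03, in naïve knees. The groups did not overlap, although the lowest injured library lay only just above the highest naïve one, and the difference was 1.76-fold (log2 0.82 ± 0.24 SE, FDR 0.0170). Without day 7 injured replicate 2 or 3 Col24a1 missed the threshold (FDR 0.0553 and 0.0941), as it did with transcript length as an offset (FDR 0.0689).

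Together the 7 genes held 8.88%, 8.34% and 9.83% of all counts in the day 7 injured libraries, compared with 1.77% to 2.92% in naïve ones. Of all genes tested, 17.4% had every day 7 injured value above every naïve value, as each of the 7 members had.

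**Figure D2:**
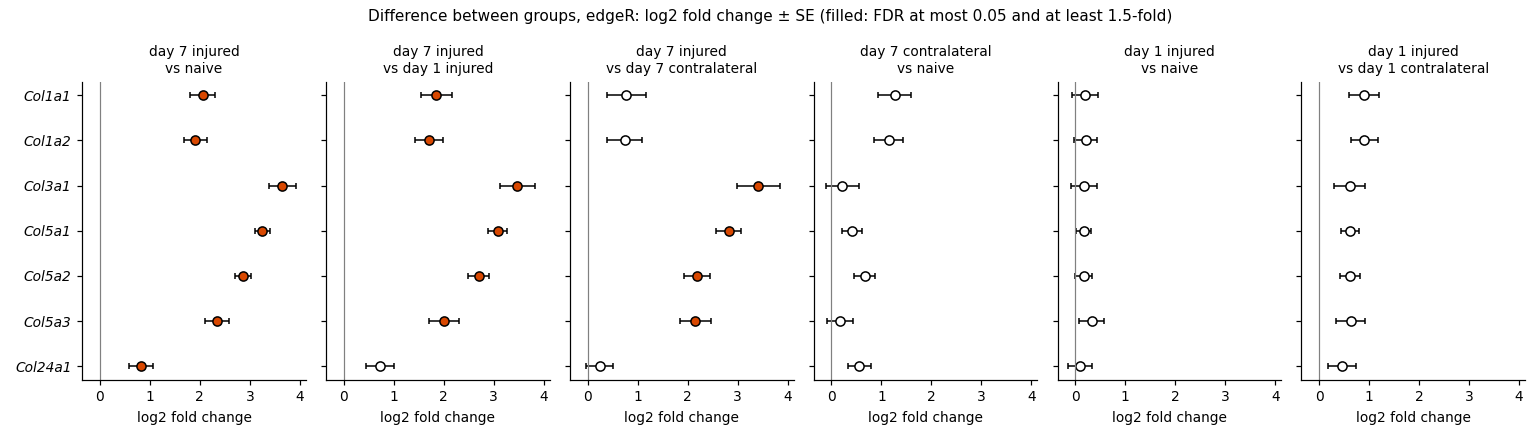
Log2 fold change ± SE of each gene in 6 comparisons (edgeR), with filled points for called genes. All 7 points are filled for day 7 injured against naïve, 6 against day 1 injured, 4 against day 7 contralateral, and none in the comparisons without day 7 injured knees.

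Marker genes of other cells moved in the same comparison. Of the tendon and ligament markers, 6 of 6 were higher, led by tenomodulin (Tnmd), a membrane protein of tendon cells, at 88.4 ± 5.42 CPM in injured (SD, n = 3) and 6.98 ± 3.69 in naïve knees (SD, n = 6), a log2 difference of 3.68 ± 0.37 (SE). Their summed level was 1716, 1818 and 2280 CPM in the injured libraries and 349 to 808 CPM in the naïve ones, and the most abundant in injured libraries was fibromodulin (Fmod), which cartilage also expresses. Pericyte and smooth muscle markers were higher for 4 of 7 (Acta2, Cspg4, Mcam and Rgs5), with sums of 718, 804 and 902 CPM against 345 to 482 CPM and Rgs5 as the most abundant in injured libraries. Endothelial markers were higher for 4 of 7 (Cdh5, Emcn, Eng and Pecam1), with sums of 654, 659 and 745 CPM against 518 to 608 CPM, although their most abundant gene, Vwf, was not called (−0.37 ± 0.12, FDR 0.0271, under the fold limit). No marker of these lists was at 0 in any library, and the part of such cells in the collagen result was not tested.

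Chondrocyte markers summed to 2871, 3239 and 3468 CPM in the injured libraries, above the naïve range of 1259 to 2423 CPM, with Acan or Comp the most abundant. Of the 11, Acan (1.57 ± 0.20), Comp (1.39 ± 0.20) and Sox9 (1.36 ± 0.19) were higher and Chad (−0.73 ± 0.26) was lower. Osteoblast and osteocyte markers summed to 797, 860 and 888 CPM in the injured libraries, inside the naïve range of 605 to 896 CPM, with 1 of 10 higher (Ibsp, 0.69 ± 0.12) and 2 lower (Mepe, −0.61 ± 0.14, and Sost, −0.95 ± 0.22). The abundant osteoblast gene Bglap was not called (−0.35 ± 0.31, FDR 0.415). Synovial fibroblast markers were higher for 2 of 8 (Thy1 and Pdgfra), and their sums of 1178, 1652 and 2311 CPM overlapped the naïve range of 605 to 1674 CPM, with lubricin (Prg4) the most abundant throughout. Of the 7 erythroid markers 4 were lower, and of the 6 adipocyte markers 3 were lower, where 6.11% of all genes tested were. Of 8 neutrophil and marrow markers 2 were lower, 1 of 7 osteoclast markers was higher (Ctsk), and no macrophage or skeletal muscle marker out of 8 each was called.

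**Figure D3:**
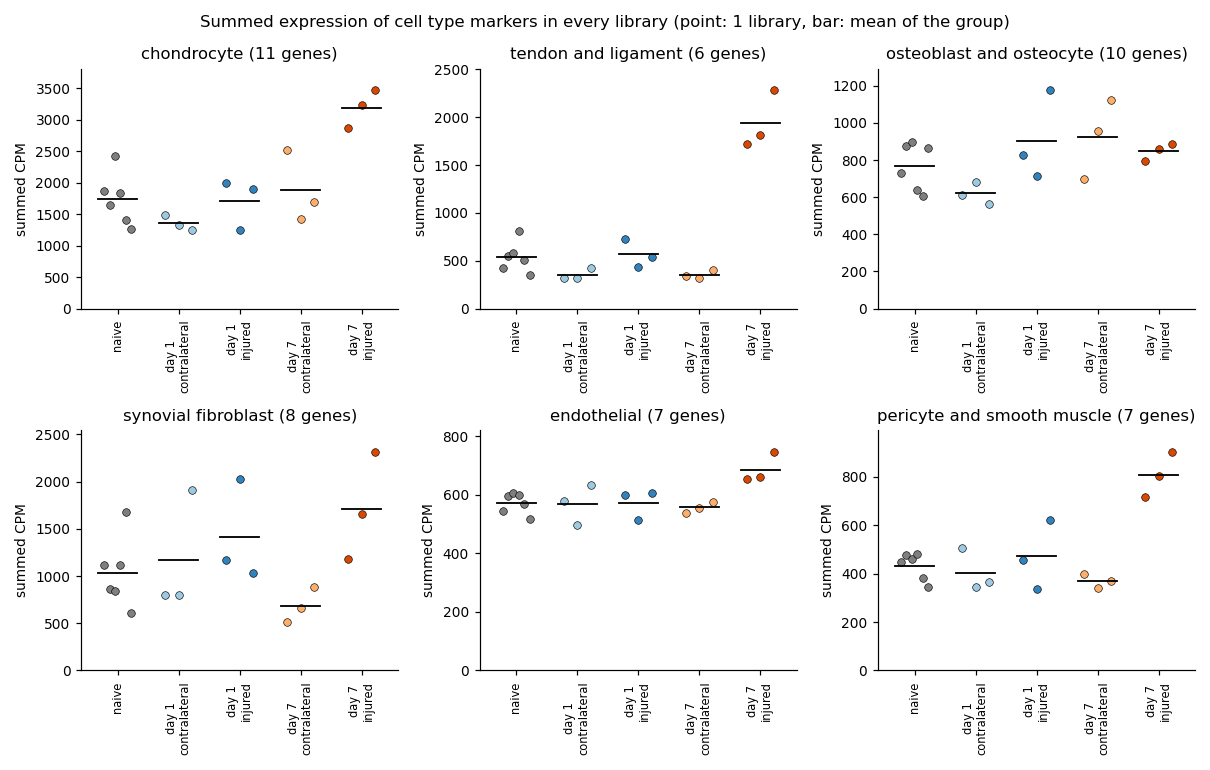
Summed CPM of the marker genes of 6 cell types in each library (points), with bars at group means. The tendon and ligament sum lies between 1716 and 2280 CPM in day 7 injured libraries and at most 808 in naïve ones, whereas the osteoblast and osteocyte sum of the day 7 injured libraries lies within the naïve range.

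Against the contralateral knees of the same time, 4 of the 7 genes were higher in day 7 injured knees, where 9.33% of the 21262 genes tested were. Col3a1 was 10.7-fold higher (log2 3.41 ± 0.42 SE), Col5a1 7.09-fold (2.83 ± 0.25), Col5a2 4.55-fold (2.19 ± 0.27) and Col5a3 4.44-fold (2.15 ± 0.31), with the highest FDR among them at 8.31e-05. For these 4 genes every injured library lay above every contralateral one, as for 18.6% of all genes tested. By library totals alone the median of all genes was −0.19 and the share of higher genes among those called 52.4%, against 74.3% with TMM, and the same 4 genes were called. The type I chains were not called, at 0.77 ± 0.39 for Col1a1 (FDR 0.188) and 0.75 ± 0.35 for Col1a2 (FDR 0.152). Col24a1 was not called either, at 0.24 ± 0.27 (FDR 0.589).

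The edgeR result for type I rested on the contralateral library that stood apart. Col1a1 measured 52440, 15476 and 21550 CPM in the day 7 contralateral libraries, of which the first lay within the injured range, and Col1a2 measured 27123, 9444 and 12863 CPM. Its place within the injured range depended on the scaling, whereas its place at the top of its own group did so only in part. As a share of all counts, without TMM, Col1a1 stood at 3.65%, 1.67% and 2.17% in the contralateral libraries, against 3.89% to 4.65% in the injured ones. Col1a2 stood at 1.89%, 1.02% and 1.30%, against 2.17% to 2.50%. Replicate 1 was thus still far the highest of its group for both genes, although below every injured library. In TPM, which also weighs by transcript length, Col1a1 was at 1774, 1734 and 1995, against 3169 to 4357 in injured knees, and Col1a2 at 1022, 1199 and 1352, against 1928 to 2828, so that on that scale alone replicate 1 was not the highest. Without that library both were called, Col1a1 at 1.48 ± 0.34 (FDR 0.00609) and Col1a2 at 1.33 ± 0.31 (FDR 0.00708), which brings the members called to 6. The same library also had the highest Col3a1 of its group in CPM (3732, against 1190 and 1455) and as a share of counts (0.260%, against 0.128% and 0.147%) but not in TPM (182, against 185 and 177), and the highest Col2a1 on both scales (10448 CPM, against 2739 and 3128, and 462 TPM, against 378 and 357). Its osteoblast and osteocyte marker sum was the lowest of the group (699 CPM, against 957 and 1123), and its erythroid sum was the highest of all libraries at 64543 CPM. Col3a1, Col5a1, Col5a2 and Col5a3 kept their calls without it, with log2 differences of 4.12, 3.22, 2.61 and 2.47, and Col24a1 was again not called (0.22 ± 0.30, FDR 0.685).

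Markers of other cells were higher in this comparison as well. Of the tendon and ligament markers 6 of 6 were called higher, and their sums of 1716 to 2280 CPM in injured knees lay far above 340, 323 and 404 CPM in the contralateral ones. Pericyte and smooth muscle markers were higher for 4 of 7, with sums of 718 to 902 against 341 to 398 CPM, and endothelial markers for 4 of 7, with 654 to 745 against 539 to 576 CPM. Synovial fibroblast markers were higher for 3 of 8 (Pdgfra, Pdpn and Thy1). Their sums of 1178, 1652 and 2311 CPM did not overlap 514, 665 and 880 CPM in the contralateral knees, although they overlapped the naïve range, and Prg4, the most abundant, was not called (1.51 ± 0.52, FDR 0.0504). Chondrocyte markers were higher for 4 of 11 (Acan, Comp, Hapln1 and Sox9). Called lower were 1 osteoblast and osteocyte marker (Sost), 4 of 7 erythroid, 3 of 6 adipocyte and 2 of 8 neutrophil and marrow markers, where 3.23% of all genes tested were. No marker of these lists was at 0 in these libraries, and the part of such cells in the collagen result was not tested.

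Whether the opposite knee itself departed from naïve knees at day 7 was not settled by the test. No gene of 21262 was called (0% higher), with 3220 genes at an unadjusted p under 0.05, among them 4 of the 7 members. DESeq2 called 8 genes, and Col1a1 and Col1a2 were among them, while limma-voom called none. Col1a1 was 2.40-fold higher (1.26 ± 0.32, FDR 0.248), Col1a2 2.21-fold (1.15 ± 0.29, FDR 0.248), Col5a2 1.58-fold (0.66 ± 0.22, FDR 0.248) and Col24a1 1.47-fold (0.56 ± 0.23, FDR 0.280). Col24a1 was the member whose 3 contralateral libraries (21.4, 21.4 and 25.1 CPM) all lay above the naïve range, as did 1.92% of all genes tested. Without replicate 1 no gene was called either. The type I values were then 0.57 ± 0.28 for Col1a1 and 0.58 ± 0.26 for Col1a2. Col5a2 went from 0.66 to 0.26 ± 0.20 (FDR 0.928) and Col5a1 from 0.40 ± 0.20 (FDR 0.348) to 0.030 ± 0.18. Col3a1 changed sign, from 0.22 to −0.47, as did Col5a3, from 0.17 to −0.13, and Col24a1 stood at 0.60 ± 0.26 (FDR 0.890). The bone-cell markers set beside type I in naïve libraries also stood mostly above naïve here, with none called. Osteoclast markers had an estimate above 0 for 7 of 7 (median 0.59), with sums of 1631, 2304 and 2137 CPM in the contralateral libraries against 1058 to 1684 CPM in naïve ones. Osteoblast and osteocyte markers did for 9 of 10 (median 0.40), with sums of 699, 957 and 1123 CPM against 605 to 896 CPM. Replicate 1, the highest for type I in CPM though not in TPM, was the lowest of its group in both sums. Other lists went the opposite way, again with none called. Tendon and ligament markers had an estimate above 0 for 1 of 6 (median −0.55), and skeletal muscle markers for 0 of 8 (median −0.58). The part of these cells was not tested.

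At day 1 the injured knees were close to naïve knees for these genes. Log2 differences ran from 0.09 for Col24a1 to 0.33 for Col5a3, and no member was called. Neither was any other of the 21129 genes (0% higher) in edgeR or limma-voom, although DESeq2 called 15 lower. None of the 7 members had an unadjusted p under 0.05, against 959 of all genes. Col3a1 measured 2060, 2222 and 1909 CPM at day 1, inside the naïve range, and Col1a1 measured 12621, 10197 and 19986 CPM, with replicate 3 above every naïve library. Several marker sums were also highest of the group in that library. They were those of osteoblasts and osteocytes (1176 CPM, against 826 and 713), osteoclasts (1681, against 1659 and 1235), pericytes and smooth muscle (622, against 455 and 339), skeletal muscle (11554, against 7421 and 3235) and, by little, the endothelium (606, against 600.0 and 514). The skeletal muscle sum was the highest of all 18 libraries. Other sums were the lowest of the group in replicate 3, namely those of erythroid cells (19275 CPM, against 24503 and 33989), synovial fibroblasts and macrophages. Its chondrocyte, tendon and ligament, adipocyte, and neutrophil and marrow sums lay between those of the rest of its group. In naïve libraries, by contrast, erythroid sums were higher where Col1a1 was higher. The part of these cells in the values was not tested. Leaving replicate 3 out turned the sign of the Col1a1, Col1a2 and Col24a1 differences, to −0.12, −0.10 and −0.14.

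Against the opposite knee at day 1 the values of all 7 genes were higher on the injured side, but no gene was called. The differences were 0.91 ± 0.28 for Col1a2, 0.89 ± 0.30 for Col1a1, and between 0.61 and 0.63 for Col3a1 and the type V chains, with Col24a1 lowest at 0.47 ± 0.28. Of the 7, 5 had an unadjusted p under 0.05 (Col1a1, Col1a2, Col5a1, Col5a2 and Col5a3), as had 1383 of 21129 genes (6.55%), and the lowest FDR was 0.755. The 3 injured libraries lay above the 3 contralateral ones for 4 members (Col1a1, Col1a2, Col5a1 and Col5a3) and for 5.09% of all genes tested. DESeq2 and limma-voom called none either (0% of genes were called higher). Marker estimates were mostly higher on the injured side too, with none called. Above 0 were 6 of 6 tendon and ligament (median 0.72), 9 of 10 osteoblast and osteocyte (0.47) and 6 of 7 osteoclast markers (0.48). So were 11 of 11 chondrocyte (0.28), 6 of 6 adipocyte (0.48) and 8 of 8 skeletal muscle markers (0.28). Erythroid (0 of 7, −0.37), neutrophil and marrow (0 of 8, −0.22) and macrophage markers (2 of 8, −0.09) were mostly below 0. The contralateral libraries were the low side of this comparison. Col1a1 measured 7058, 8092 and 7873 CPM in them, below all 6 naïve libraries, and Col1a2 4470, 4779 and 4469 CPM, also below all of them, as 0.753% of all genes tested were. Set against naïve knees, the contralateral values at day 1 were −0.69 ± 0.27 for Col1a1 and −0.70 ± 0.25 for Col1a2. Here 4 members (also Col5a1 and Col5a2) had an unadjusted p under 0.05, beside 554 genes in all, and edgeR and limma-voom called nothing (0% higher), while DESeq2 called 1 gene higher and 1 lower. Marker estimates in the contralateral knees were mostly on the same side, with none called. Those above 0 were 0 of 6 tendon and ligament (median −0.66), 0 of 7 osteoclast (−0.28), 0 of 11 chondrocyte (−0.34), 0 of 6 adipocyte (−0.38) and 1 of 10 osteoblast and osteocyte markers (−0.23). Erythroid markers went the other way (6 of 7 above 0, median 0.06), and skeletal muscle markers were divided (4 of 8, −0.02). The sums of tendon and ligament (317 to 421 CPM), osteoclast (1119 to 1259 CPM) and osteoblast and osteocyte markers (565 to 681 CPM) overlapped the naïve ranges, and the part of these cells was not tested. These comparisons share their contralateral or injured libraries and are not independent of each other.

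Between day 1 and day 7 the injured knees gained expression of 6 of the 7 genes, where 9.04% of genes tested were higher. Col3a1 rose 11.1-fold (3.47 ± 0.34, FDR 7.06e-06), Col5a1 8.46-fold (3.08 ± 0.19, FDR 1.12e-07) and Col5a2 6.50-fold (2.70 ± 0.21, FDR 7.33e-07). Col5a3 rose 4.02-fold, Col1a1 3.62-fold and Col1a2 3.26-fold, and none of these had an FDR above 0.000573. By library totals alone the median of all genes was −0.45 and the share of higher genes among those called 11.6%, against 58.6% with TMM, and these 6 genes kept their calls. The 3 libraries of the later time lay above the 3 of the earlier one for each of these 6 genes, as they did for 22.8% of all genes tested. Col24a1 did not pass, at 0.73 ± 0.28 (FDR 0.0702), and its day 1 value of 21.5 CPM in replicate 3 exceeded the lowest day 7 value of 21.3. Without that day 1 library it passed (0.96 ± 0.30, FDR 0.0418).

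Markers of other cells differed between the injured knees of these days too. All 6 tendon and ligament markers were called higher at day 7 (median 2.23), with sums of 1716 to 2280 CPM against 434 to 730 CPM at day 1. Pericyte and smooth muscle markers were higher for 4 of 7, with sums of 718 to 902 against 339 to 622 CPM, and endothelial ones for 2 of 7 (Emcn and Pecam1), with 654 to 745 against 514 to 606 CPM. Also higher were 3 chondrocyte markers (Acan, Comp and Sox9), 2 synovial fibroblast (Pdgfra and Thy1), 2 macrophage (C1qa and C1qb) and 1 osteoclast marker (Ctsk). The osteocyte genes Mepe (−0.59 ± 0.15) and Sost (−1.03 ± 0.25), 2 adipocyte markers and 1 of skeletal muscle were lower, where 6.38% of all genes tested were. The part of these cells in the collagen values was not tested.

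The difference between injured and contralateral knees was then compared between the days. It was larger at day 7 for Col3a1, by 2.80 ± 0.56 (FDR 0.00742), for Col5a1, by 2.20 ± 0.34 (FDR 0.000906), and for Col5a2, by 1.56 ± 0.36 (FDR 0.0200), all on the log2 scale. Of all genes tested, 3.72% were called in that direction. By library totals alone the median of all genes was −0.23 and the share of higher genes among those called 72.8%, against 92.8% with TMM, and these 3 genes kept their calls. Col5a3, at 1.52 ± 0.42, missed the threshold at an FDR of 0.0527, and passed in DESeq2 (FDR 0.0129), in limma-voom (FDR 0.0468) and without the filter on low counts (FDR 0.0448). For the type I chains the estimates were −0.12 ± 0.55 for Col1a1 and −0.16 ± 0.49 for Col1a2, with standard errors too wide to tell a change of either sign, and for Col24a1 −0.23 ± 0.38. Without day 7 contralateral replicate 1 the difference grew to 3.51 ± 0.48 for Col3a1 (FDR 0.000457), 2.60 ± 0.28 for Col5a1 (FDR 6.47e-05) and 1.99 ± 0.31 for Col5a2 (FDR 0.00123), and Col5a3 was called (1.84 ± 0.42, FDR 0.0186). The estimates for type I became 0.59 ± 0.44 and 0.43 ± 0.40 and that for Col24a1 −0.24 ± 0.40, still not called. The call of Col5a2 was lost when day 1 contralateral replicate 3 was left out (1.27 ± 0.35, FDR 0.0782), and likewise without day 1 injured replicate 1, day 7 contralateral replicate 2 or 3, or day 7 injured replicate 3 (FDR 0.0523 to 0.0750), and when the naïve libraries were left out of the fit (FDR 0.0749). Marker genes were called in this comparison as well. Of the tendon and ligament markers 4 of 6 were higher (Fmod, Kera, Scx and Tnmd, with a list median of 2.11), together with Acta2 of the pericyte and smooth muscle list (2.01 ± 0.44), Pecam1 of the endothelium (0.74 ± 0.17), Pdgfra and Thy1 of synovial fibroblasts and the chondrocyte genes Acan and Sox9. The bone-cell genes Sost (−1.85 ± 0.48) and Sp7 (−0.90 ± 0.24) were lower, where 0.287% of all genes tested were, and the part of these cells was not tested.

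Ordered by mean CPM, Col3a1, Col5a1, Col5a2 and Col5a3 had day 7 injured knees first, without overlap with any other group. The 4 other groups followed, and neighbours among them overlapped. For Col3a1, for example, their means were 2126 ± 1398 CPM in day 7 contralateral knees, 2064 ± 157 in day 1 injured, 1825 ± 615 in naïve and 1349 ± 590 in day 1 contralateral ones (SD, n = 3, 3, 6 and 3). Without replicate 1 the day 7 contralateral mean of Col3a1 was 1323 CPM (2 libraries), the lowest of the 5 groups. For Col1a1 the order was 50924 ± 3862 in day 7 injured knees, 29822 ± 19822 in day 7 contralateral, 14268 ± 5098 in day 1 injured, 12425 ± 3807 in naïve and 7674 ± 545 in day 1 contralateral ones, and among neighbours in this order the naïve and day 1 contralateral libraries did not overlap. Without replicate 1 the day 7 contralateral mean of Col1a1 was 18513 CPM, still second. Col24a1 ran from 26.8 ± 5.13 CPM through 22.6 ± 2.18, 16.4 ± 4.50 and 15.4 ± 4.15 to 11.9 ± 3.66 in the same order of groups, with overlap between all neighbours.

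Because the genes rose by different factors, the mix of fibrillar collagen messages changed. Ratios of TPM within a library, in which library scaling cancels, were compared between day 7 injured and naïve knees by a 2-sided exact permutation test over 84 regroupings of the libraries, whose smallest p is 0.0238, with adjustment over 7 ratios. The regroupings treat the naïve libraries as independent, although by the study's scheme they share mice. The p-values of these ratios may therefore be too small, and none might pass with mice as the unit. Type III gained on type I: Col3a1 was 0.632, 0.645 and 0.632 of Col1a1 in injured knees, against 0.107 to 0.394 in naïve ones (log2 difference 1.63, exact permutation p = 0.0238, adjusted p = 0.0278). In day 7 injured replicate 1, Col3a1 even exceeded Col1a2, with 27.1% against 26.1% of the members' TPM. These 3 injured libraries were nearly alike in this ratio, whereas the naïve ones spread widely, and the day 7 contralateral ones were at 0.0887 to 0.107. The part of the differing numbers of mice behind the libraries in this spread was not tested.

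The type V chain Col5a1 gained on type I as well, and the type V chains shifted among themselves. Col5a1 relative to Col1a1 was higher in injured knees by 1.13 on the log2 scale (adjusted p = 0.0278, exact permutation). Col5a1 relative to Col5a2 was 0.775, 0.783 and 0.868 in injured knees and 0.556 to 0.719 in naïve ones (log2 difference 0.38, adjusted p = 0.0278, exact permutation), so that the 2 chains came closer to equal levels. Col5a3 relative to Col5a1 fell, from between 0.137 and 0.270 in naïve knees to 0.113 to 0.120 (log2 difference −0.87, adjusted p = 0.0278, exact permutation), and its share of the members' TPM in injured knees, 0.188% to 0.231%, lay inside the naïve range. Col24a1 relative to Col1a1 was lower by 1.28 (log2 difference −1.28, adjusted p = 0.0278, exact permutation), without overlap.

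Within type I the chains kept their proportion more closely. Col1a1 was 1.64, 1.48 and 1.54 times Col1a2 in injured knees and 1.34 to 1.49 times in naïve ones, and the groups overlapped. This log2 difference of 0.12 gave p = 0.0476 (exact permutation) and did not hold when any naïve library but replicate 6, or any injured library, was left out, nor with protein-coding transcripts alone (adjusted p = 0.0714). With an injured library left out the design cannot reach an adjusted p of 0.05 for any of these ratios. The members' sum relative to Col2a1 was 26.8, 22.5 and 28.9 in injured knees, against 4.58 to 9.39 in naïve ones, while Col2a1 itself was not called (0.25 ± 0.20, FDR 0.358).

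**Figure D4:**
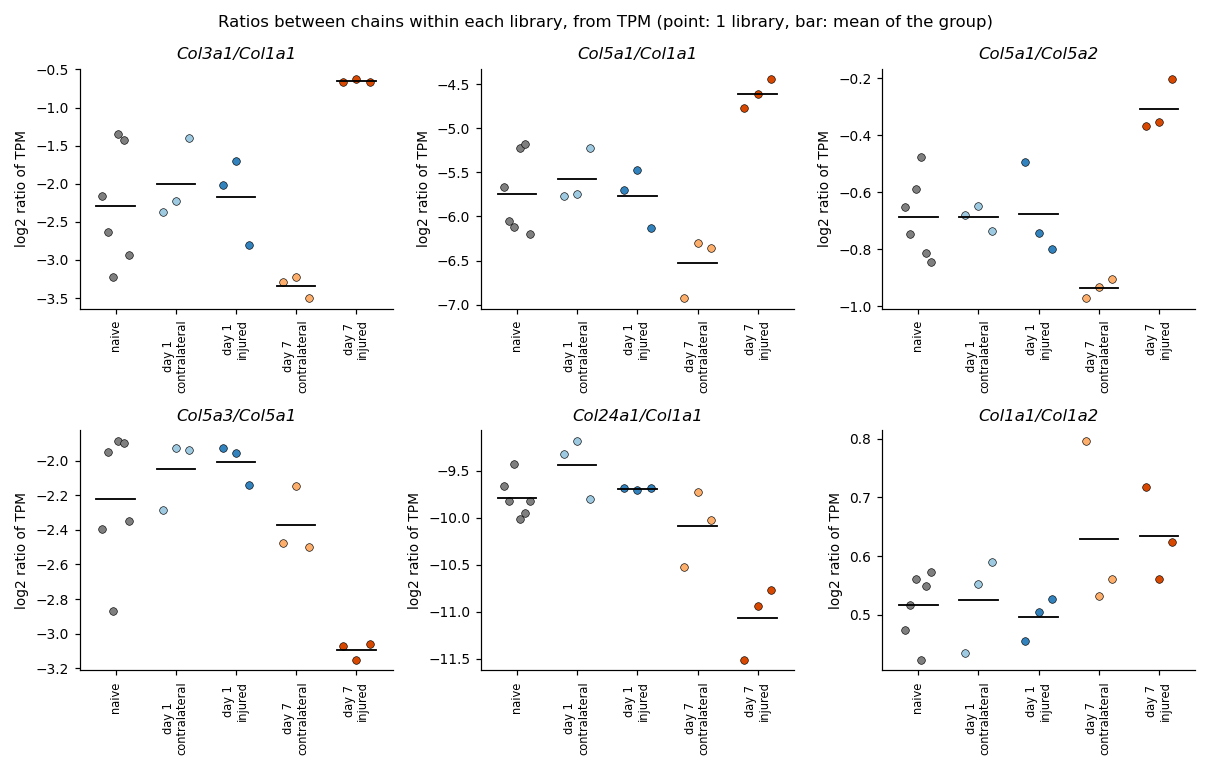
Log2 ratios of TPM between pairs of members in each library (points), with bars at group means. The day 7 injured libraries lie apart from all naïve libraries in 5 panels and overlap them in the Col1a1/Col1a2 panel, where they lie between 0.56 and 0.72.

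Across the 18 libraries the members fell into groups by likeness of their log2 CPM (Pearson r, a description, since libraries of a group and day 7 injured libraries in particular set much of it). Col1a1 and Col1a2 were each other's closest gene among 11916 (r = 0.998), and remained so in the 15 libraries without day 7 injured knees (r = 0.996). Gpc1 (0.96) and Col11a1 (0.96) came next for Col1a1, and Col11a1 (0.96) and Cmtm4 (0.95) for Col1a2. Closest to Col5a1 were Scarf2 (0.99), P3h3 (0.99), a prolyl 3-hydroxylase family member, and C1qtnf6 (0.99), and closest to Col5a2 were Scarf2 (0.99), Col5a1 (0.99) and C1qtnf6 (0.99). Sar1a (0.99), a small GTPase of vesicle budding from the endoplasmic reticulum, led for Col3a1, before Ptgfrn (0.99) and Glis2 (0.99). Igfbp7 (0.98), Col3a1 (0.98) and Npdc1 (0.97) were nearest to Col5a3. By rank (Spearman), Col1a1 and Col1a2 were still each other's closest gene (0.99), but other lists changed. The closest to Col5a1 were then Mmp2, Clec11a and Kank2, and Desi2 led for Col3a1. Between Col3a1 and Col1a1 the value was 0.53 by rank and 0.79 by Pearson r.

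Col24a1 kept other company. Its nearest genes were Prss35 (0.92), the osteoclast collagenase gene Ctsk (0.91) and Podnl1 (0.91), and without the day 7 injured libraries Cpz (0.95), Prss35 (0.94) and Phex (0.92), the last an osteocyte gene. In those 15 libraries it followed Col1a1 (0.77) and Col1a2 (0.80) but not Col3a1 (−0.17) or Col5a3 (−0.03). Col3a1 in turn followed Col5a3 (0.90) and Col5a1 (0.82) there more than Col1a1 (0.40), and Col5a1 stayed with Col5a2 (0.96).

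Genes that make, bind, sense and remove fibrillar collagen were listed to place the 7 in their pathway. In day 7 injured against naïve knees, 10.4% of all genes tested were called higher and 6.11% lower. Other fibrillar collagens, those of cartilage, differed little, with a median of 0.38, in day 7 injured against naïve knees: Col11a1, a chain of type XI, was higher (1.26 ± 0.19, FDR 0.000121), and Col2a1 and Col11a2 (0.17 ± 0.19) were not called. Col27a1 (0.52 ± 0.16, FDR 0.0252) stayed under the fold limit. In contrast, 14 of 16 proteins that bind to fibrils were higher, with a median of 2.31. Periostin (Postn) led at 4.29 ± 0.43, from 146 ± 85.4 to 2821 ± 695 CPM, followed by asporin (Aspn, 4.22 ± 0.27), Col12a1 (3.19 ± 0.15) and Col14a1 (2.99 ± 0.19), the last 2 being collagens on the fibril surface. Sparc (1.53 ± 0.16), biglycan (Bgn, 2.30 ± 0.16) and fibronectin (Fn1, 1.63 ± 0.22) had the highest TPM of the list. Tnxb (−0.91 ± 0.39, FDR 0.0937) and Tgfbi (0.98 ± 0.46, FDR 0.124) were not called.

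Machinery inside the cell moved in the same direction. Of 19 genes for procollagen modification and folding, 17 were higher, with a median of 1.58. The largest difference was in P4ha3 (3.82 ± 0.55), a catalytic subunit of prolyl 4-hydroxylase, from 3.30 ± 2.79 to 47.0 ± 8.43 CPM, then P4ha2 (2.51 ± 0.13), the lysyl hydroxylase Plod2 (2.21 ± 0.13) and P3h4 (2.06 ± 0.15). Serpinh1, which encodes the collagen chaperone Hsp47, was the most abundant per length and rose by 1.80 ± 0.18. Tmem38b (−0.19 ± 0.09) and Colgalt2 (−0.13 ± 0.25) were not called. Of 8 genes for procollagen export 5 were higher, led by Creb3l1 (1.49 ± 0.20), a transcription factor of collagen secretion, and the coat component Sec24d (1.39 ± 0.16), while Sar1b (0.03 ± 0.19) and Mia2 (−0.01 ± 0.07) were not called and Sec13 (0.57 ± 0.10, FDR 0.000541) stayed under the 1.5-fold limit.

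Outside the cell, 11 of 12 tested genes for propeptide removal and cross-linking were higher (median 1.53, with a 13th gene, Tll2, below the filter). They included the cross-linking oxidases Loxl2 (2.88 ± 0.18) and Lox (2.27 ± 0.38), the enhancer Pcolce (2.04 ± 0.14) and the C-proteinase Bmp1 (1.58 ± 0.11). Pcolce2 (0.09 ± 0.13) was not called. Collagen receptors were divided: 5 of 10 were higher, led by Itga11 (2.80 ± 0.18), the integrin chain of fibroblasts, and the uptake receptor Mrc2 (1.73 ± 0.13). Gp6, the collagen receptor of platelets, was the only gene in these pathway lists called against the direction of the rest (−0.70 ± 0.16, FDR 0.00481).

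Collagen-degrading proteinases were higher for 5 of 7 tested (Mmp1a was below the filter), with Mmp2 (3.29 ± 0.15) and Mmp14 (2.82 ± 0.15) far ahead of Ctsk (1.248 ± 0.16), Fap (1.09 ± 0.10) and Mmp13 (0.88 ± 0.22). Mmp9 was level (0.02 ± 0.13) and Mmp8 was not called (−0.47 ± 0.13, FDR 0.0160, under the fold limit). Among 16 known regulators of type I collagen transcription 8 were higher, of which the tendon factor Scx (2.94 ± 0.23, from 2.96 ± 1.00 to 22.5 ± 1.24 CPM) and the ligand Tgfb3 (1.86 ± 0.14) were first. Tgfb1 (−0.07 ± 0.08) and the osteoblast factors Runx2 (0.00 ± 0.10) and Sp7 (0.02 ± 0.15) were not called.

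**Figure D5:**
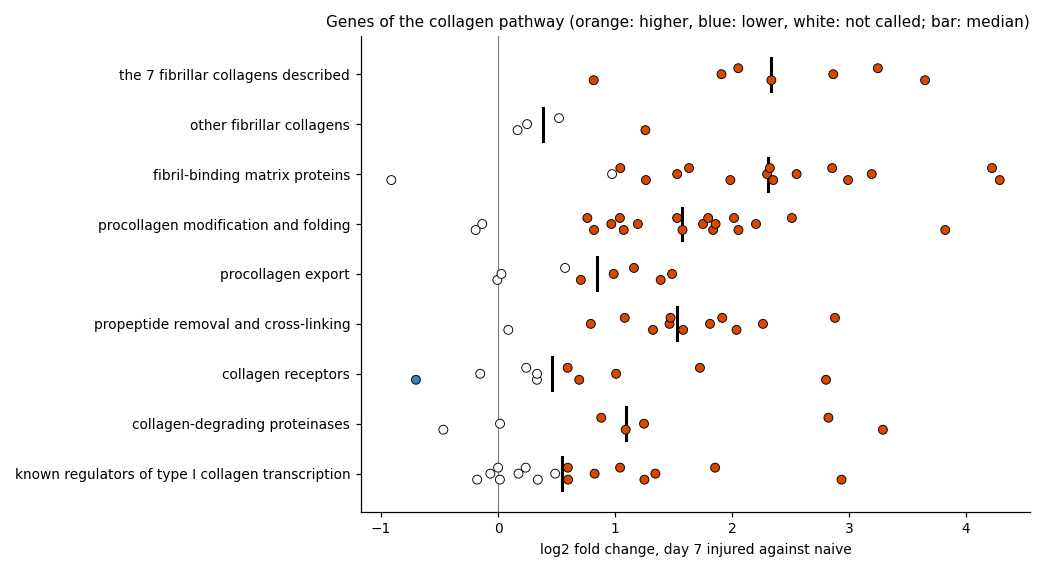
Log2 fold change of each tested gene in day 7 injured against naïve knees, for the 7 fibrillar collagens and 8 lists of pathway genes (orange higher, blue lower, white not called, bar at the list's median). The medians are 2.34 for the 7 genes, 2.31 for fibril-binding proteins and 1.58 for modification and folding, against 0.38 for the other fibrillar collagens.

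Against day 7 contralateral knees, with all 18 libraries in the fit, 14 of 16 fibril-binding genes, 17 of 19 modification and folding genes, 5 of 8 export genes and 10 of 12 propeptide and cross-linking genes were higher, with medians of 2.58, 1.42, 0.87 and 1.68 beside −0.05 for all genes. Receptors were higher for 4 of 10, proteinases for 3 of 7 and regulators for 7 of 16, where 9.33% of all genes tested were. Between the opposite knee and naïve knees at day 7, and in the day 1 comparisons, no gene of any list was called. For the injury effect at day 7 minus that at day 1, 11 of 16 fibril-binding, 13 of 19 modification and folding, 4 of 8 export and 6 of 12 propeptide and cross-linking genes were called higher, together with 3 receptors, 2 proteinases and 4 regulators, and Sp7 was called lower (−0.90, FDR 0.0422). Of all genes tested for this effect, 3.72% were called higher and 0.287% lower.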

How the data were processed

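The 18 libraries were total RNA without ribosomal RNA. The authors trimmed the reads and quantified transcripts of mouse GRCm38 by Kallisto (the submitters' processing notes list GRCh38, which cannot fit these mouse identifiers). They deposited estimated counts per transcript, not normalized, and TPM, which the authors' tool scales by effective length and library total. Of 137436 transcripts, 135107 (98.3%) matched GENCODE M21. Estimated counts of these were added up per gene (49184 genes) and rounded to whole numbers, and the rest held 0.667% to 3.90% of a library. edgeR 4.0.16 (R 4.3.3) was used with TMM, its low-count filter, a mean per group and no covariates, and p-values were adjusted by Benjamini-Hochberg over all genes tested. Fits used 15 libraries (21129 genes), or 18 (21262 genes) where day 7 contralateral knees enter. Calls required an FDR no higher than 0.05 and a difference no smaller than 1.5-fold, and for the injury effect between days the FDR alone. The study removed 1 ACL library for low mapping without naming it. Its scheme shows as many libraries as were used here, so the removed one may be among the 18, all of which were kept. The study's test (limma-voom with a correlation within mouse pools) was not repeated, since the sources used here do not give each library's pool. DESeq2 1.42.0, limma-voom 3.58.1, other filters, scalings, transcripts and each library left out were tried. The test was also run on simulated counts, but the outcome is not given here and no statement above rests on it. Members are a list of names whose rule uses no measured value, but they and the lists were chosen with earlier results of these data known. From the lists, genes with the largest difference or the highest TPM at day 7, up to 4 each, and all called against the list are named, and the 3 most alike genes of each member by Pearson r among genes with a mean CPM of at least 5. Other genes given as not called were picked after their values were seen.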

Additional observations from a re-analysis of the deposited data

Results flagged for a closer look

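Between day 1 and day 7 the injury effect (injured minus contralateral knee) was not the same for 3 of the 7 genes in a test of the difference itself (edgeR, contrast of group means over 18 libraries). It was larger at day 7 by 2.80 on the log2 scale for Col3a1, by 2.20 for Col5a1 and by 1.56 for Col5a2, and by 3.51, 2.60 and 1.99 without day 7 contralateral replicate 1. The call of Col5a2 was lost without any 1 of 5 other libraries (FDR 0.0523 to 0.0782) and without the naïve libraries in the fit (FDR 0.0749). In day 7 injured knees all 3 libraries lay above all 3 contralateral ones for each of these genes, as for 18.6% of all genes tested, whereas at day 1 they did so for Col5a1 alone of the 3, and for 5.09% of all genes tested. No member had a naïve library far from the other 5 of its group by Dixon's criterion, which was applied to that group only because the others hold 3 libraries.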

How the results depend on the processing

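Counts of called members kept within 1.5 times their value under the alternatives run, except that DESeq2 called 2 members (Col1a1 and Col1a2) in day 7 contralateral against naïve knees, where edgeR called 0. Signs that turned all belong to uncalled differences. With library totals alone, chosen after seeing the data, Col3a1 and Col5a3 in day 7 contralateral against naïve knees were −0.086 and −0.053. Transcript length as an offset gave −0.000210 for Col24a1 in day 7 injured against contralateral knees, and limma-voom gave 0.086 for Col1a1 and 0.0027 for Col1a2 in the injury effect between days. The cause was not tested. Leaving out a library each in turn, day 1 injured against naïve ranged from −0.12 to 0.40 for Col1a1, −0.10 to 0.42 for Col1a2 and −0.14 to 0.24 for Col24a1. Day 7 contralateral against naïve ranged from −0.47 to 0.53 for Col3a1 and −0.13 to 0.33 for Col5a3. The injury effect between days ranged from −0.46 to 0.59 for Col1a1, −0.47 to 0.43 for Col1a2 and −0.45 to 0.015 for Col24a1. Over all genes, an FDR of at most 0.01 moved the lower calls of day 7 injured against naïve from 1291 to 472, and dropping the fold limit moved the higher ones from 2207 to 3960. No paired analysis was possible because the labels do not tie injured and contralateral libraries to mice. The study modelled the shared pools, and how that would move the calls was not tested here. The lowest count of any member in a library was 265, for Col24a1.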
